A study of Mus musculus with 4 samples.

Results

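The RNAs described here are the small nucleolar RNAs (snoRNAs) and small Cajal body RNAs (scaRNAs) measured by whole transcriptome sequencing of mouse cortex. They were chosen as every row of the deposited count table whose type was snoRNA or scaRNA, and 91 of 37539 rows met the rule. All 91 were typed snoRNA and 0 scaRNA, although 11 of them are scaRNA genes in the GENCODE M21 annotation of GRCm38. Cortical samples came from 12-month-old male APPswe/PS1ΔE9 double transgenic mice (APP) and from age-matched male C57BL/6J WT mice (C57BL/6 in the labels), with 2 mice in each group. In this line, which goes back to B6.Cg-Tg (APPswe/PS1ΔE9) 85Dbo/Mmjax animals, the mutant human presenilin and the chimeric mutant amyloid precursor transgenes are driven by the prion protein promoter. The APP libraries are called APP.3 and APP.4 and the WT libraries WT.1 and WT.2, after the table's columns. Libraries held 28525117 to 43881196 counts, so any comparison rested on the spread between 2 samples on each side, for which the smallest exact two-sided permutation p is 0.333.

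SnoRNAs are short stable RNAs that guide chemical modification of other RNAs. Box C/D snoRNAs, named Snord, direct ribose methylation by fibrillarin, box H/ACA snoRNAs, named Snora, direct pseudouridylation by dyskerin, and a few members of each kind act in cleavage of the ribosomal RNA precursor. ScaRNAs carry the same boxes, reside in Cajal bodies and guide modification of the spliceosomal snRNAs. In mammals most of them are cut out of introns of host genes, many of which encode ribosomal proteins or translation factors or have no protein product.

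The sequences below show the boxes that separate the classes and the members that carried most of the counts. They are the GENCODE M21 transcripts, 5′ to 3′, with coordinates in GRCm38, and capitals mark a box C core TGATGA in the first 25 bases, a box D core CTGA in the last 10 bases or an ACA in the last 6 bases. For the first 2, of 325 and 343 bases, the ends alone are shown.
Scarna10, chr6:125186359-125186683, minus strand, first 60 bases: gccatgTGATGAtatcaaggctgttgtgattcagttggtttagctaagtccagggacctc
Scarna10, chr6:125186359-125186683, minus strand, last 60 bases: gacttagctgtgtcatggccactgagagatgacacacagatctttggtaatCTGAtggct
Gm22009, chr3:69085105-69085447, minus strand, first 60 bases: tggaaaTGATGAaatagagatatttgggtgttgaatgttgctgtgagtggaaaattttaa
Gm22009, chr3:69085105-69085447, minus strand, last 60 bases: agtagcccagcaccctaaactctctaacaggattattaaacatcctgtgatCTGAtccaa
Scarna13, chr12:105031075-105031349, minus strand: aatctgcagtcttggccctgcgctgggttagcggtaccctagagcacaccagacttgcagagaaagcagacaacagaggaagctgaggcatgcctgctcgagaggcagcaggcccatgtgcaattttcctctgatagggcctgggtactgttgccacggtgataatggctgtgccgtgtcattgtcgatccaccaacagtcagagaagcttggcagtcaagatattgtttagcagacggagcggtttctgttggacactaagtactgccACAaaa
Snord15b, chr7:99479563-99479707, minus strand: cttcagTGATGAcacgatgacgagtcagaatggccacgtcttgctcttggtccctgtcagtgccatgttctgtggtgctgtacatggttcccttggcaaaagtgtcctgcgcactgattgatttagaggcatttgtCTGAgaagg
Rnu3b3, chr11:87448627-87448842, plus strand: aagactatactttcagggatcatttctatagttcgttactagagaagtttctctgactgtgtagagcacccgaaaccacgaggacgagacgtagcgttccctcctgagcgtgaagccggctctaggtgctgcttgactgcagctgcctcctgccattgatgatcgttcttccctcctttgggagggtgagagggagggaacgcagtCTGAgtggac
Snora73a, chr4:132352775-132352979, minus strand: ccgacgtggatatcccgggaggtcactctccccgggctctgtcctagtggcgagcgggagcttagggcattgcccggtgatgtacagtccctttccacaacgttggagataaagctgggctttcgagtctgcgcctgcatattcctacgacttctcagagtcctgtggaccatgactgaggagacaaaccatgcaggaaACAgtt
Snora73b, chr4:132352322-132352526, minus strand: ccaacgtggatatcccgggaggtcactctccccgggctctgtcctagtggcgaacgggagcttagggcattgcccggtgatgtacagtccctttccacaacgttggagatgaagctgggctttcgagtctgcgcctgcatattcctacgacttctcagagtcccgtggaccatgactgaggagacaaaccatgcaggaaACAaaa
Gm22988, chr11:69669635-69669778, minus strand: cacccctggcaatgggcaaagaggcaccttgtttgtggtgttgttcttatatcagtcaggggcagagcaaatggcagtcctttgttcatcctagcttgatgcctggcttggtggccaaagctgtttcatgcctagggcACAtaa
Scarna10, Gm22009 and Snord15b held both C/D cores, Rnu3b3 held the box D core, and Scarna13, both Snora73 copies and Gm22988 ended in an ACA.

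By symbol the members were 24 Snora, 6 Snord, 5 Scarna, 2 copies of U3 (Rnu3a and Rnu3b3) and 54 others, nearly all provisional Gm names. Read on the transcript strand, an ACA in the last 6 bases was found in 65 members (71.4%) and in 46.5% of the 1558 annotated snoRNA and scaRNA transcripts. On the opposite strand the same search matched 4.4% of members. CTGA in the last 10 bases was found in 17 members (18.7%, against 26.5% of annotated transcripts) and TGATGA in the first 25 in 12 (13.2%, against 21.4%). The opposite-strand searches matched 5.49% of members for CTGA and 0 for TGATGA. The boxes followed the symbols, since 23 of 24 Snora members had the ACA end alone and 5 of 6 Snord members the CTGA end alone. Of the 54 members without a class symbol, 38 had the ACA end alone and 5 the CTGA end alone, 2 had both and 9 neither.

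The listed members were the long ones. Of 98 annotated Snord transcripts, with a median length of 84 bases, 6 were listed, against 24 of 42 Snora transcripts with a median length of 132.5 bases. All 5 Snord transcripts of at least 120 bases were listed, and 1 of 93 shorter ones. That exception was Snord68, a guide for large-subunit ribosomal RNA of 86 bases that lies in Rpl13. An exon of another counted Rpl13 transcript, with 221 counts against 209 for Snord68, covers it, and reads of the 2 cannot be told apart there. Across all classes, 1 of 462 transcripts under 100 bases and 0 of 130 from 100 up to 120 bases were listed, and 14 of 39 of at least 200 bases. Among the imprinted neuronal snoRNAs, none of the 17 Snord116 (median 94 bases), 4 AF357 or 1 Snord64 transcripts was listed. Snord115, Snord113 and Snord114 have no transcript of that symbol in GENCODE M21 and were not looked for by another name. Snora35, of 128 bases and hosted by Htr2c, and Snord13, a ubiquitous snoRNA of 104 bases with its own promoter, were not listed either. The non-coding transcripts that span these imprinted clusters were well counted, with 108932, 134358, 194846 and 145408 counts for Snhg14 and 24163, 27883, 39531 and 32862 for Rian in APP.3, APP.4, WT.1 and WT.2. How much of the shortfall came from fragment size, read mapping or expression was not tested. For extraction the labels name a Qiagen RNeasy kit and the study's methods TRIzol, and silica columns can retain short RNAs poorly. The part of extraction in the listing by length, and in the levels of short against long members below, was not tested either, and an RNA that was not listed is not shown to be absent from the cortex. The contrast of Snord with Snora below is therefore one of 5 Snord members of at least 120 bases and Snord68 with 24 Snora members.

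**Figure D1:**
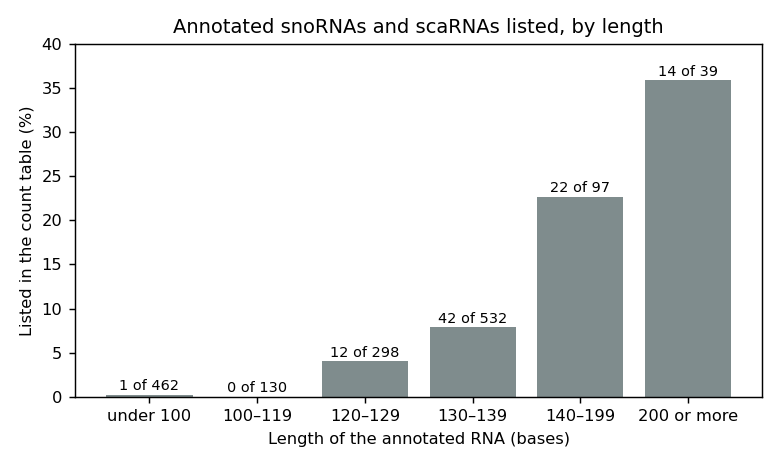
Percentage of annotated GENCODE M21 snoRNA and scaRNA transcripts that were listed in the count table (y axis), by transcript length in bases (x axis), with the numbers above each bar. The share was 0.217% under 100 bases and 35.9% at 200 bases or more.

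Members took 0.173% and 0.199% of the counts of the APP libraries, APP.3 first, and 0.178% and 0.170% of the counts of WT.1 and WT.2. The share was highest in one APP library and the groups overlapped. Most of it came from a few scaRNAs. Scarna10, known as U85, which carries both kinds of box and guides modification of the U5 snRNA, held 47.8% of all member counts, and the 5 most abundant members (Scarna10, Gm25395, Gm22009, Scarna13 and Scarna2) held 73.7%. At the other end, 45 members had fewer than 100 counts over the 4 libraries, the lowest had 18, and 1 member, Gm22313, had 0 counts in 1 library (WT.2). Only 36 members reached 200 counts in all, and statements on single members below rest mainly on these.

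Per length, Scarna10 stood at 2482, 2958, 2616 and 2528 CPM per kilobase, CPM being counts scaled to the size of the library, in APP.3, APP.4, WT.1 and WT.2. Gm25395, a scaRNA gene in an intron of Atg16l1, was next at 620, 736, 630 and 591. Scarna10 exceeded it in every library, by 4.11 ± 0.13 times (SD, n = 4 libraries). Scarna13 (U93, a guide for snRNA pseudouridylation) averaged 356 CPM per kilobase and Gm22009 also 356, and neither was the higher in all 4 libraries. Gm22009 was above Scarna13 in APP.3 and APP.4 (374 against 350 and 398 against 385). It was below Scarna13 in WT.1 and WT.2 (312 against 337 and 339 against 355). Gm22988, Snora73b, Snora73a and Rnu3b3 followed with means of 304, 293, 274 and 258, each overlapping its neighbour over the 4 libraries. An exon of another counted transcript covers Gm22988, so its level may include reads of that transcript. The range of Rnu3b3 did not overlap that of Snora74a, at a mean of 204. Members of at least 200 bases, 14 of the 91, carried 87.3% of the member counts. Over the 91 members, length and mean CPM per kilobase had a Spearman rho of 0.48, a description over RNAs that share the same libraries.

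**Figure D2:**
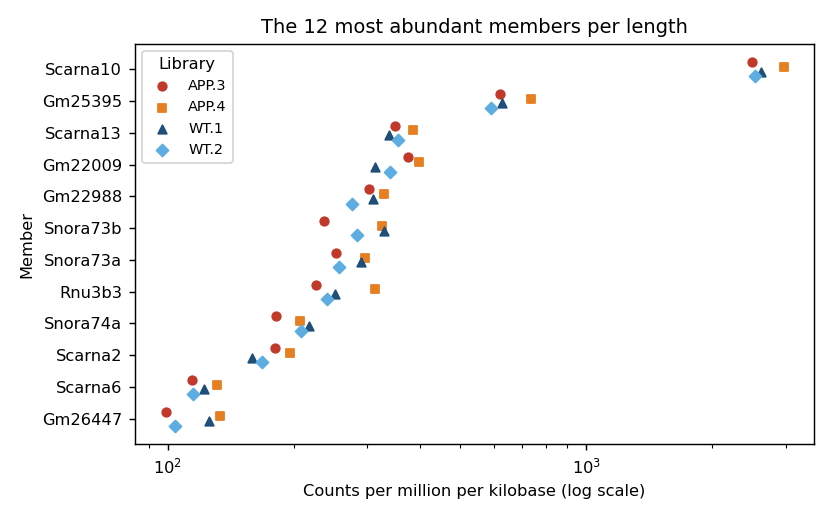
CPM per kilobase (log x axis) of the 12 members most abundant per length, with 1 point for each of the 4 libraries. Scarna10 lies between 2482 and 2958 in every library, above Gm25395 at 591 to 736, and the members from Scarna13 to Rnu3b3 overlap their neighbours.

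The comparison of APP with WT addressed the difference between genotypes at 12 months. It gave no call among the members. With edgeR's quasi-likelihood test, 0 of 91 members passed an FDR under 0.05 with a fold change of at least 1.5, where 0.881% of all 18386 features passed, 155 of them (0.843%) higher and 7 (0.0381%) lower in APP. The FDR alone also gave 0 members, against 1.14% of all features. At an unadjusted p under 0.05 there were 5 members (5.49%), against 12.1% of all features, and the smallest adjusted p of a member was 0.19 by edgeR's quasi-likelihood test. DESeq2, edgeR's exact test and its likelihood ratio test also called 0 members, where they called 1.1%, 1.93% and 2.13% of all features. On the log2 fold change scale the median member was 0.13 and the median of all features −0.001, and 59 of 91 members (64.8%) lay above 0 against 49.7% of features. Without APP.4 the member median was −0.03 and without APP.3 it was 0.23, so its sign rested on 1 library. Groups did not overlap for 31 of 91 members (34.1%), against 42.7% of all features. The higher group was APP for 23 of the 91 (25.3%), against 21.3% of all features, and WT for 8 of the 91 (8.79%), against 21.4%. The 95% interval lay within 1.5-fold either way for 23 members, all of them among the 36 with at least 200 counts, and for the other 68 the interval reached past 1.5-fold. In bulk tissue, fewer cells of a type and less RNA per cell cannot be told apart.

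**Figure D3:**
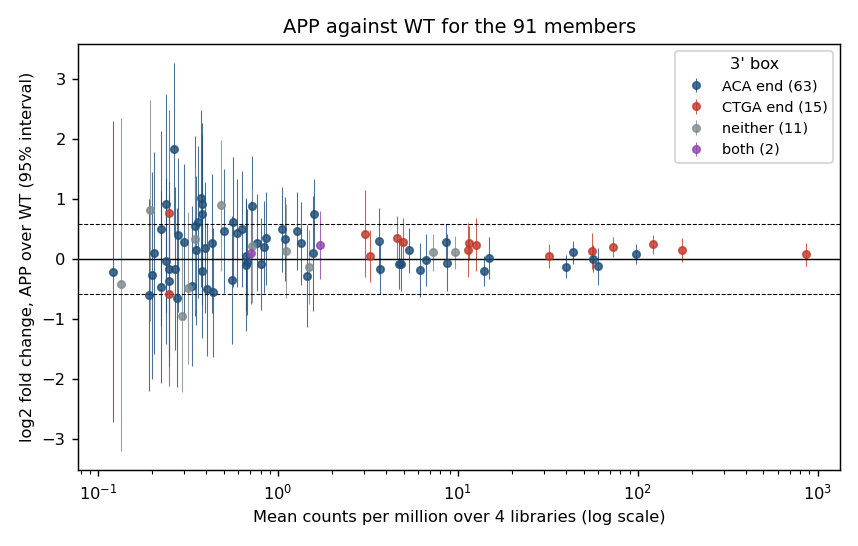
Log2 fold change of APP over WT with its 95% interval (y axis) against mean CPM (log x axis) for the 91 members, coloured by the box at the 3′ end, with dashed lines at 1.5-fold. Intervals narrow with abundance, and 0 members passed the call.

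The labels held where the data could check them. App had 77727 and 73975 counts in the APP libraries and 37675 and 32094 in WT, and Prnp, whose promoter drives the transgenes, 53838 and 50246 against 23138 and 18967. Markers of cortical neurons such as Snap25 were high in all libraries. Of the fixed marker lists, 3 of 7 microglial, 2 of 4 astrocyte and 1 of 5 oligodendrocyte genes were called higher in APP, at median log2 fold changes of 0.72, 0.48 and 0.43, while 0 of 6 neuronal genes were called, at a median of −0.10. The summed CPM was 214 to 268 in APP against 145 to 147 in WT for the microglial list, 1456 to 1586 against 1017 to 1037 for astrocytes and 1449 to 1643 against 1078 to 1192 for oligodendrocytes. Among other cell types, 0 of 2 interneuron, 0 of 3 endothelial, 0 of 2 tested choroid plexus and 0 of 3 blood genes were called. Of all features, 0.881% were called. The part of these cell types in the member values was not tested.

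Of the 12 members with a Scarna symbol or a scaRNA gene type, 0 were called, against 0.881% of all features. The 7 with at least 200 counts had log2 fold changes from −0.02 to 0.25. At an unadjusted p under 0.05 there were 3 of the 12, Gm22009, Scarna2 and Gm25492, against 12.1% of all features. Scarna10 had 807 and 961 CPM in the APP libraries and 850 and 822 in WT. The APP libraries lay on either side of both WT libraries, and the log2 fold change was 0.08 ± 0.08 (SE) with an interval of −0.11 to 0.27. Scarna2, which guides methylation of the U2 snRNA and has no annotated host, had 74.8 and 81.0 CPM in APP and 65.9 and 69.5 in WT. Both APP values were the higher ones, by 0.20 ± 0.07 on the log2 scale, with an adjusted p of 0.28 by edgeR's quasi-likelihood test. Gm22009, in an intron of Kpna4, showed the same order, at 128 and 136 CPM in APP and 107 and 116 in WT. Its log2 fold change was 0.25 ± 0.07, with an adjusted p of 0.19 by edgeR, and its interval of 0.08 to 0.41 stayed under 1.5-fold. It was chosen for description after its values were seen, as were Gm25395, Gm22988 and Gm22270. Scarna13, in an intron of Snhg10, had 96.2 and 106 CPM in APP and 92.7 and 97.5 in WT, and the groups overlapped. Gm25395 (0.15 ± 0.09) and Scarna6 (0.05 ± 0.09), which share the host Atg16l1, likewise overlapped between groups. The fifth Scarna symbol, Scarna3a, had 27, 11, 29 and 25 counts in APP.3, APP.4, WT.1 and WT.2, with an SE of 0.49 on the log2 scale. Over all 12 the median log2 fold change was 0.12 and the values ran from −0.48 to 0.89, the widest from members with fewer than 100 counts.

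Of the members that act in cleavage of the ribosomal RNA precursor, 0 were called, against 0.881% of all features. Rnu3b3, a U3 copy needed for small-subunit processing, had 48.8 and 67.5 CPM in APP and 54.3 and 51.8 in WT, so the APP values bracketed the WT values. Rnu3a, the other U3 copy, had 10.5 and 16.7 CPM in APP and 10.8 and 12.3 in WT and showed the same bracket. These sequences were 85.4% identical, and 2 of 10 annotated U3 transcripts were listed, so reads of other copies may be included. Snora73a and Snora73b (U17), both in introns of Snhg3, were 96.6% identical. Snora73a had 51.7 and 60.8 CPM in APP and 59.4 and 52.5 in WT, for a log2 fold change of 0.01 ± 0.10. Snora73b had 48.5 and 66.6 CPM in APP and 67.2 and 58.0 in WT, for −0.12 ± 0.14. Both pairs of groups overlapped, and with sequences this close the split of reads between the copies is uncertain. Snord118 (U8), needed for the large subunit, had 3 and 9 counts in APP and 15 and 9 in WT, and Snord22, hosted by Snhg1, had 77 and 134 against 146 and 65. Neither could be separated from no change, with intervals of −2.12 to 0.96 and −0.30 to 1.15 on the log2 scale.

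The remaining Snord members are methylation guides for ribosomal RNA. Snord15b, in Rps3, had 12.6 and 12.5 CPM in APP and 11.4 and 9.48 in WT. Both APP libraries were above both WT libraries, with a log2 fold change of 0.27 ± 0.12 and an adjusted p of 0.44 by edgeR's quasi-likelihood test. An exon of another counted Rps3 transcript covers it, and reads of the 2 cannot be told apart there. Its neighbour in the same gene, Snord15a, had 9 and 10 counts in APP and 13 and 2 in WT. Snord17, in an intron of Snx5, had 9.20 and 14.9 CPM in APP and 10.7 and 11.0 in WT, again with the APP libraries on either side. Snord68 had 35 and 50 counts in APP and 74 and 50 in WT, and its log2 fold change, which may include Rpl13 reads, was −0.14 ± 0.27.

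Among the Snora members, guides of pseudouridylation, Snora74a (U19) was the third most abundant. It had 35.6 and 40.6 CPM in APP and 42.6 and 40.8 in WT, so both APP values were lower, by a narrow margin, with a log2 fold change of −0.13 ± 0.08 and an adjusted p of 0.60 by edgeR. Snora23, in Ipo7, had 3.17 and 3.78 CPM against 4.23 and 3.58, and the groups overlapped. Snora78 (log2 fold change 0.26 ± 0.30), Snora7a (0.47 ± 0.28), Snora28 (−0.09 ± 0.34) and Snora21 (0.50 ± 0.43) had fewer than 200 counts each in all. Snora44, in Snhg12, had the highest log2 fold change of the members with at least 10 counts in every library, 0.90 ± 0.48, from 14 and 24 counts in APP and 17 and 10 in WT. Its adjusted p was 0.52 by edgeR, and an exon of another counted Snhg12 transcript covers it.

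Among members without a class symbol, the highest values came from low counts. Gm25492, a scaRNA gene in Bud23 with an ACA end, had 27 and 29 counts in APP and 23 and 17 in WT. This gave a log2 fold change of 0.89 ± 0.37 with an adjusted p of 0.37 by edgeR. Gm25848, in Fbxo45, had 57 and 63 counts in APP and 58 and 37 in WT, and in CPM both APP libraries were higher (0.75 ± 0.26, adjusted p = 0.27 by edgeR). Gm26165 stood at 0.61 ± 0.48. Below that minimum, Gm22270, in an intron of Rpl5, had 11 and 14 counts in the APP libraries and 5 and 4 in the WT libraries. Its log2 fold change was 1.84 ± 0.62 with an interval of 0.42 to 3.27, and its adjusted p was 0.26 by edgeR. The lowest values among members with at least 10 counts in every library were those of Gm25187 (−0.35 ± 0.47), Gm25107 (−0.28 ± 0.37), Gm24044 (−0.21 ± 0.49), Gm25117 (−0.19 ± 0.11) and Gm24119 (−0.18 ± 0.20), and all 5 intervals included 0. Gm25117, in Nap1l1, was the best counted of these, with 12.4 and 13.7 CPM in APP and 15.8 and 14.0 in WT, and both APP values were below both WT values. A further 30 members had fewer than 10 counts in at least 1 library, Gm22270 among them, and their log2 fold changes ran from −0.95 to 1.84. The lowest was Gm26130, in Tcp1, with 6 and 6 counts in APP and 18 and 13 in WT (−0.95 ± 0.56), named after its values were seen. Groups did not overlap for 8 of the 30 (26.7%), against 42.7% of all features. APP was the higher group for 4 (13.3%, against 21.3% of all features) and the lower for 4 (13.3%, against 21.4%).

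Summed over a class, Snord members reached 26.1 and 33.9 CPM in APP.3 and APP.4 and 27.7 and 24.1 in WT.1 and WT.2. Snora members reached 148, 182, 182 and 163 in the same order. In both classes APP.3 was below APP.4 and the groups overlapped, and the median log2 fold change was 0.21 for the 6 Snord and 0.12 for the 24 Snora members. The ratio of the summed Snord to the summed Snora level was 0.177 and 0.186 in APP and 0.153 and 0.148 in WT, so both APP libraries had the higher ratio. Without Snord118 and both Snora73 copies that order held, at 0.547 and 0.611 in APP and 0.498 and 0.457 in WT. Without the 3 most abundant members of each class the ratio was 0.136 and 0.155 in APP and 0.187 and 0.152 in WT. The log2 ratio of APP to WT then went from 0.27 to −0.22. This reversal rests on Snord68, Snord118 and Snord15a alone. They summed to 1.62, 2.23, 2.32 and 1.72 CPM in APP.3, APP.4, WT.1 and WT.2, and Snord68 may include Rpl13 reads. The U3 pair summed to 59.3, 84.2, 65.1 and 64.1 CPM and the Scarna symbols to 1009, 1183, 1042 and 1020 in APP.3, APP.4, WT.1 and WT.2, with APP.4 highest each time.

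**Figure D4:**
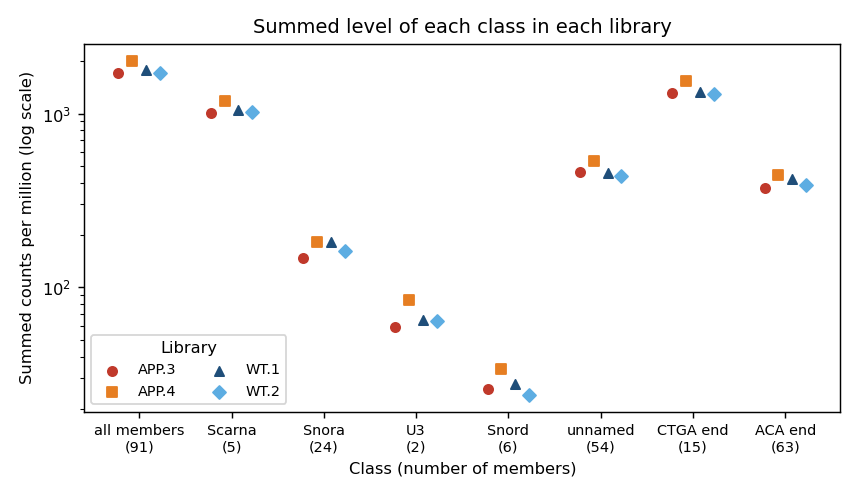
Summed CPM (log y axis) of the members of each class (x axis, with the number of members), with 1 point for each library. In every class shown APP.3 lies below APP.4, and the 2 APP libraries lie on either side of at least 1 WT library, except in the unnamed members, where both APP libraries are above both WT libraries.

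A split by the box at the 3′ end, chosen after the data were seen, took in more members than the symbols. Among members with at least 200 counts, the log2 fold change was above 0 for 13 of 13 with the CTGA end alone, with a median of 0.20, and for 9 of 19 with the ACA end alone, with a median of −0.02. Of all features, 49.7% lay above 0. Without APP.4 the counts were 8 of 13 and 5 of 19 and the medians 0.03 and −0.23, and without APP.3 they were 12 of 13 and 16 of 19 and the medians 0.29 and 0.17. The CTGA median was above the ACA median each time, though the count above 0 depended on which APP library was kept. These fits reuse the libraries on which the split was chosen, so they are no support for it. With all libraries, groups did not overlap for 4 of the 13 (30.8%) and 4 of the 19 (21.1%), against 42.7% of all features. The CTGA group was longer, with a median of 216 bases against 144, and the part of length in the difference was not tested. The ratio of the summed CTGA to the summed ACA level was 3.51 and 3.48 in APP and 3.18 and 3.34 in WT.

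Between the 2 APP libraries the median of these RNAs was shifted further than that of all features. The median of APP.3 minus APP.4 was −0.25 on the log2 CPM scale over the 91 members and −0.004 over all features, and APP.3 was the lower library for 33 of the 36 members with at least 200 counts. WT.1 minus WT.2 had a median of 0.10 over the members and 0.002 over all features, and WT.1 was the higher for 28 of the 36. Among these 36, the coefficient of variation between the 2 libraries was 14.4% for the median member in APP and 8.06% in WT. The widest values of APP.3 minus APP.4 were −1.39 for Gm25791, −1.13 for Gm25107 and −0.71 for Gm26448, followed by Snord22 and Snord17, both at −0.69, and Rnu3a at −0.67. Rnu3b3 stood at −0.47. Other short RNA classes moved the same way. The median of APP.3 minus APP.4 was −0.28 over 50 snRNA features and −0.24 over 59 misc_RNA features, and WT.1 minus WT.2 was 0.27 and 0.11. Over the 36 members, length and WT.1 minus WT.2 had a Spearman rho of −0.55, and length and APP.3 minus APP.4 one of 0.13. These are descriptions over RNAs that share 2 libraries each, and the part of RNA size in the shift was not tested.

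**Figure D5:**
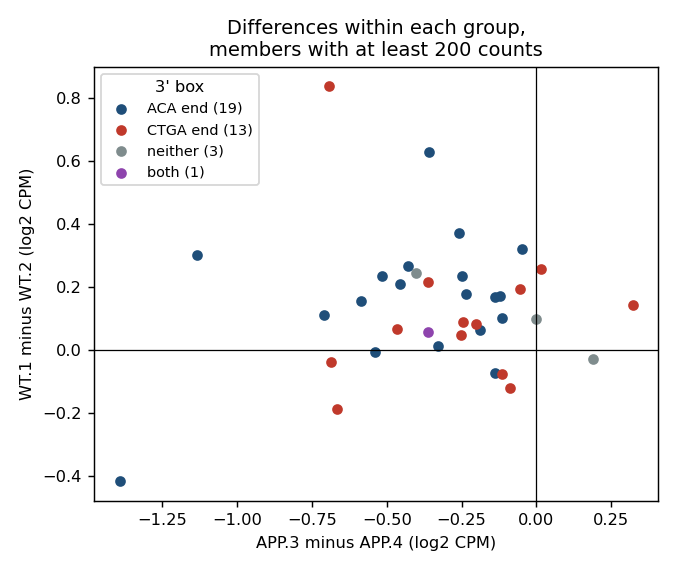
Log2 CPM of APP.3 minus APP.4 (x axis) and of WT.1 minus WT.2 (y axis) for the 36 members with at least 200 counts, 1 point per member, coloured by the box at the 3′ end. Of these points 33 lie left of 0 and 28 lie above 0.

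The hosts were near 0 in the same difference. By annotation on the same strand, 86 of 91 members lay within a host gene and 59 of these were intronic in every host transcript, while Scarna2, Rnu3a, Gm23605, Snord118 and Gm23119 had no host. Ribosomal protein genes hosted 16 of the members, initiation and elongation factor genes 8 and Snhg genes 12. For the 81 members whose host was itself counted, the 67 distinct hosts had a median log2 fold change of 0.01. Of these hosts 0 were called, against 0.881% of all features. For the 30 members with at least 200 counts, member and host log2 fold changes had a Pearson r of −0.03 and a Spearman rho of 0.07, as a description over RNAs of the same libraries. The median of APP.3 minus APP.4 was −0.29 in these members and 0.01 in their 27 hosts. Ncapd2, the host of Scarna10, stood at −0.18 ± 0.12 beside 0.08 ± 0.08 for the scaRNA, and Kpna4 at −0.01 ± 0.07 beside 0.25 ± 0.07 for Gm22009. Rps3 stood at 0.31 ± 0.07, with an adjusted p of 0.09 by edgeR, beside 0.27 ± 0.12 for Snord15b. Of 14 listed hosts, the counted Snhg genes with Gas5, Zfas1, Rian and Meg3, 0 were called, against 0.881% of all features. Their median was −0.02, and Snhg11 among them is annotated as protein coding. Snhg1, Snhg9 and Snhg10, the hosts of Snord22, Snora78 and Scarna13, were not among the counted genes. Gas5, which hosts several snoRNAs, stood at 0.23 ± 0.07, with an adjusted p of 0.21 by edgeR.

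The proteins of the particles also gave no call. Of the 8 core proteins, 0 passed the test, where 0.881% of all features did, and the median log2 fold change was −0.01. Fbl, the methyltransferase of C/D particles, had 317 and 290 counts in APP and 399 and 304 in WT, higher in both APP libraries once scaled, at 0.20 ± 0.13. Dkc1, the pseudouridine synthase of H/ACA particles, stood at 0.08 ± 0.09. Gar1, another H/ACA protein, had the lowest value, −0.34 ± 0.16, from 97 and 104 counts in APP and 179 and 157 in WT, and its adjusted p was 0.46 by edgeR. Nop56, Nop58 and Snu13 of the C/D core and Nhp2 and Nop10 of the H/ACA core lay between −0.05 and 0.06. Their intervals all fell within 1.5-fold either way, as did those of Fbl and Dkc1. Of 16 assembly, trimming and Cajal body genes, 15 were counted and 0 were called, against the same 0.881% of all features, with a median of 0.03. Wrap53, which brings scaRNAs to Cajal bodies, had 173 and 157 counts in APP and 167 and 162 in WT, which gave a log2 fold change of 0.40 ± 0.17 with an adjusted p of 0.40 by edgeR. Coil, the scaffold of Cajal bodies, stood at 0.03 ± 0.10, Nolc1, a particle chaperone, at −0.01 ± 0.09, and Tgs1, which trimethylates the caps of snRNAs and U3, at −0.08 ± 0.09.

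Some members may share reads with other rows. Alignment of the members found 16 pairs with at least 80% identity, among them Gm22988 in Eif4a1 and Gm25291 in Sec24a at 97.2%. The first had 43.6 and 47.4 CPM in APP and 44.6 and 39.6 in WT, and the second 111 and 173 counts in APP and 220 and 178 in WT. Both overlapped between groups, and the split of reads between them is uncertain. For 16 members an exon of another counted transcript covered the member. Among them were Gm22988 (6095 counts beside 4871 on the covering transcript), Gm25187 (78 beside 3267) and Gm26130 (43 beside 2654). Snora43, an annotated snoRNA gene that the table typed lincRNA, was not a member and had 87, 81, 111 and 102 counts in APP.3, APP.4, WT.1 and WT.2.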

How the data were processed

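Cortical RNA of 2 APP and 2 WT mice underwent ribosomal depletion and strand-specific paired-end sequencing. The authors removed read pairs of ribosomal origin, mapped the remainder with FANSe2 against an Ensembl mouse RNA database (release not given in the sources used here) with up to 7 mismatches, kept transcripts with at least 10 mapped reads, and deposited unnormalized counts per transcript. The submitters' processing notes name CASAVA 1.8 and edgeR. A log2 CPM and log2 fold change, a p-value and an FDR deposited by the authors come from their edgeR comparison and were not used, nor were 4 further columns of values per library.

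Member rows stayed features of their own and other rows were summed per gene through GENCODE M21, which matched 98.2% of rows and all 91 members. In the table, 72 members had no symbol. Of 18386 features with at least 10 counts, 0 were left out. APP and WT were compared with edgeR 4.0.16 (quasi-likelihood, TMM, no covariate) in R 4.3.3, with Benjamini-Hochberg adjustment over all features, calling an FDR under 0.05 with a fold change of at least 1.5. The fit had a common dispersion of 0.00778 and 6.54 prior degrees of freedom. CPM values use TMM library sizes, log2 values of single libraries a prior count of 2, intervals are 95%, and errors of fold changes are SEs. Positive log2 fold changes are higher in APP. On 18371 simulated features, changes were planted in 200 features above a minimum mean CPM, drawn from all features and not from the members. Of these, 85% of 2-fold and 100% of 4-fold changes were called, as were 8 unchanged features. Members below that minimum, such as Gm26493 at a mean of 0.86 CPM, were not covered by these shares. The shares need not hold for members above it either. The median SE was 0.38 over the members and 0.13 over all features. Alternatives were DESeq2 1.42.0, other scalings, tests and filters, and leaving out each library. Tables were handled with Python 3.11.15, pandas 2.3.3 and numpy 2.4.6, and sequences aligned with Biopython 1.88. Reads carry no molecular identifiers, so counting limits cover counting error only. WT columns were matched to mice by number, and APP columns to their group alone.

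Members and lists were chosen with earlier results of these data known. Named members were those past the FDR, the most abundant 8 Snord, 8 Snora and 4 Scarna, the 5 highest and 5 lowest log2 fold changes among members with at least 10 counts in every library, and fixed snoRNAs of known role, with their hosts and the particle proteins.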

Additional observations from a re-analysis of the deposited data

How the results depend on the processing

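The count of members called was 0 under every alternative run, and so was that of the particle and assembly protein genes. With all 4 libraries, both counts were also 0 without a minimum fold change or with non-overlapping groups required. With all 4 libraries kept, 234 of 234 values of the 34 named members kept their direction. These alternatives refit the same counts, and some of the named members were chosen by their fold changes, so this is no independent support. The median log2 fold change of the members ranged from −0.027 to 0.23, of the Snora members from −0.064 to 0.21 and of the Snord members from −0.11 to 0.35 as each library was left out, each lowest without APP.4. Leaving out APP.3 gave a smallest member adjusted p of 0.00115, and leaving out APP.4 one of 0.00229, by edgeR's quasi-likelihood test, at fold changes under 1.5. Both adjusted p-values come from fits with 1 APP library, so no result on the members is drawn from them. Gm22009 had a log2 fold change of 0.29 without APP.3 and 0.20 without APP.4, against 0.25 with all 4 libraries. The median log2 fold change of the protein genes was 0.0075 to 0.058 without a library and 0.060 with every row as a feature. The Snord to Snora log2 ratio of APP to WT went from 0.27 to −0.22 without the 3 most abundant members of each class, which left few Snord counts. It was 0.28 without Snord118 and both Snora73 copies. With classes set by the 3′ box, chosen after the data were seen, it was 0.10 for the CTGA over the ACA sum, and 0.17 without Scarna10. The CTGA sum takes in scaRNAs and is mostly Scarna10, so these values do not check the contrast of Snord with Snora. For the member total the log2 ratio of APP to WT was 0.09, and 0.11 without Scarna10. Leaving out a library changed the sign for 12 named members, none of them called. Their log2 fold changes ran from −0.24 to 0.45 for Snord17, −0.36 to 0.055 for Snord68, −0.37 to 0.087 for Snora73b, −0.11 to 0.12 for Snora73a, −0.052 to 0.52 for Snora78, −0.049 to 0.20 for Scarna10, −0.053 to 0.15 for Scarna6, −0.93 to 0.084 for Gm25187, −0.997 to 0.19 for Gm25107, −0.51 to 0.077 for Gm24119, −0.12 to 0.35 for Rnu3b3 and −0.13 to 0.53 for Rnu3a. The cause was not tested.

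No paired analysis was possible because the APP columns carry the numbers 3 and 4 and the WT columns 1 and 2, so no number is shared. A library left alone in its group was assumed to vary like the other group. The intervals of 68 of the 91 members reached past 1.5-fold, and 55 of these had fewer than 200 counts.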
